A study of Mus musculus with 15 samples.

Results

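The 35 genes described here act in the G2 phase of the cell cycle and in mitosis, from *Mki67* and *Top2a* to the cyclins, mitotic kinases, checkpoint proteins, spindle motors and the transcription factors *Foxm1* and *Mybl2*. They were chosen by name, as a list, out of 23462 genes named on the microarray, and each was found through the RefSeq transcript that a probe was designed for. Together they had 56 of the 56605 distinct probes. At least 1 probe of every one of the 35 genes could be tested, and the probe that stands for each gene was well above background on all 15 arrays.

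RNA came from Mouse Embryonic Fibroblasts (MEFs), here the established Balb/c/3T3 clone A31, so all groups share 1 cloned line. The 5 groups held 3 arrays each. Besides untreated controls, 1 group received TNFα at 10 ng/ml and another received TGFß1 at 5 ng/ml. IL-1β was given at a concentration of 1 ng/ml. The last group was given IL-6 at 20 ng/ml together with 25 ng/ml of its soluble receptor, sIL-6Rα. The TNFα and TGFß1 arrays, with their controls, followed 24 h of stimulation. For the IL-1β and IL-6/sIL-6Rα arrays the labels leave 24 h or 72 h open, so their time is not known. The study describes the control, TNFα and TGFß1 arrays as 3 independent experiments each, without tying arrays of different groups to one experiment. For IL-1β and IL-6/sIL-6Rα no source used here says whether arrays came from separate cultures, so p-values there measure only the spread between arrays, which may be technical. Arrays are called by group and by the number in their label.

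Cyclin A and the B cyclins switch on the kinase Cdk1, which drives cells from G2 into mitosis, and the anaphase-promoting complex with Cdc20 and Ube2c then destroys cyclin B so that cells can leave it. Most of these genes are transcribed mainly in late S phase, G2 and mitosis. They are held down in resting cells by the DREAM complex, which binds a short element called CHR, and switched on by B-Myb (from *Mybl2*), FoxM1 and NF-Y, which binds CCAAT boxes. Their RNA level in a culture is therefore widely read as a sign of how many cells are dividing. TGFß1 stops the division of many epithelial cells in G1, while its effect on fibroblasts varies with the conditions.

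Every level below is log2 of the probe's processed signal minus the 75th percentile of its array, and every fold-change is a difference of such levels between groups, estimated with limma over all 15 arrays. A gene was called at a q-value below 0.05, after Benjamini-Hochberg adjustment over all 29334 probes tested, where the fold-change in either direction was also 1.5 or more. Fibroblast markers (10 of 10) were well above background on all arrays, while this held for 0 of 7 epithelial, 1 of 5 endothelial, 2 of 5 muscle and 3 of 6 leukocyte markers. *Cdh1* and *Krt5* (epithelial) and *Ptprc* and *Adgre1* (leukocyte) were above background on no array. *Cd68*, *Itgam* and *Cd3e* (leukocyte), *Pecam1* (endothelial) and *Acta1* and *Cnn1* (muscle) were above it on all 15 arrays. *Krt18* (epithelial) was above it on 10. Of the epithelial markers, *Krt8* was called with TGFß1 (2.19, q = 0.0176) at a dim level, above background on 4 of 15 arrays. Of the 10 fibroblast markers, 3 were called with TNFα and 5 with TGFß1. The part of these shifts in the results below was not tested. The arrays lay on 2 slides. Control 6 was the only control on slide 2, which also held TNFα 4 and 9, TGFß1 2 and 12, IL-1β 15 and IL-6/sIL-6Rα 13. The label numbers 1 to 5, 6 to 10 and 11 to 15 each hold 1 array of every group, and the 35 genes were low on several arrays numbered 6 to 10, as given further on. All 4 comparisons with control share the same 3 control arrays.

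With TGFß1, 2 of the 35 genes were called as lower and none as higher, while 18 of the 35 estimates were above 0. *Nusap1*, which encodes a protein that bundles spindle microtubules, fell by 0.67 (SE 0.15, limma q = 0.00704), and *Cdc25c*, the phosphatase that removes the inhibitory phosphates from Cdk1, fell by 0.66 (SE 0.19, q = 0.0230). Of all probes tested, 17.9% were called in this comparison, 10.4% as lower. By q-value alone 4 genes passed (24.3% of all probes), the other two being *Ccnb2* and *Mki67*, both lower by less than 1.5-fold. The median over the 35 genes was 0.03, beside 0.07 over all probes. Without control 11 neither *Nusap1* (-0.58, q = 0.0302) nor *Cdc25c* (-0.53, q = 0.0854) was called. Within slide 2, with control 6 as the only control, neither was called. Estimates above 1.5-fold there were those of *Cenpa* (0.81), *Ube2c* (0.73), *Aurka* (0.69), *Mybl2* (0.65) and *Racgap1* (0.59). These rest on 1 control array, and the share of all probes with such estimates is not given. In bulk RNA, fewer cells in G2 and mitosis and less RNA per such cell cannot be told apart.

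With TNFα, 0 of the 35 genes were called by limma, while 10.0% of all probes were. At an unadjusted p below 0.05 there were 3 genes (25.9% of all probes), namely *Ccnb2*, *Cdc25c* and *Kif20a*, all lower. *Ccnb2*, a B cyclin, was the only one with a q-value below 0.05 (-0.40, SE 0.12, q = 0.0410), at under 1.5-fold. The median over the 35 genes was -0.07, beside 0.04 over all probes, and 10 of the 35 estimates were above 0 (54.5% of all probes). *Cdc25c* was at -0.54 (q = 0.0846) and was called without control 6 (-0.76, q = 0.0108) or without TNFα 14 (-0.69, q = 0.0430).

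With IL-1β and with IL-6/sIL-6Rα, limma called 0 of the 35 genes, and 0 reached an unadjusted p below 0.05. Few probes were called at all in these comparisons, 0.232% with IL-1β and 0.0580% with IL-6/sIL-6Rα. The estimates ran from -0.21 (*Kif20a*) to 0.09 (*Ube2c*) with IL-1β and from -0.19 (*Kif23*) to 0.07 (*Kif11*) with IL-6/sIL-6Rα. The 95% interval lay wholly inside a 1.5-fold change either way for 31 genes with IL-1β (54.0% of all probes) and for 32 genes with IL-6/sIL-6Rα (55.3%). With TNFα and TGFß1 this held for 26 genes (35.5% of all probes) and 23 genes (28.9%). For the remaining genes, which with TGFß1 include *Nusap1* and *Cdc25c*, the interval reached past 1.5-fold, so a change of that size was not excluded.

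**Figure D1:**
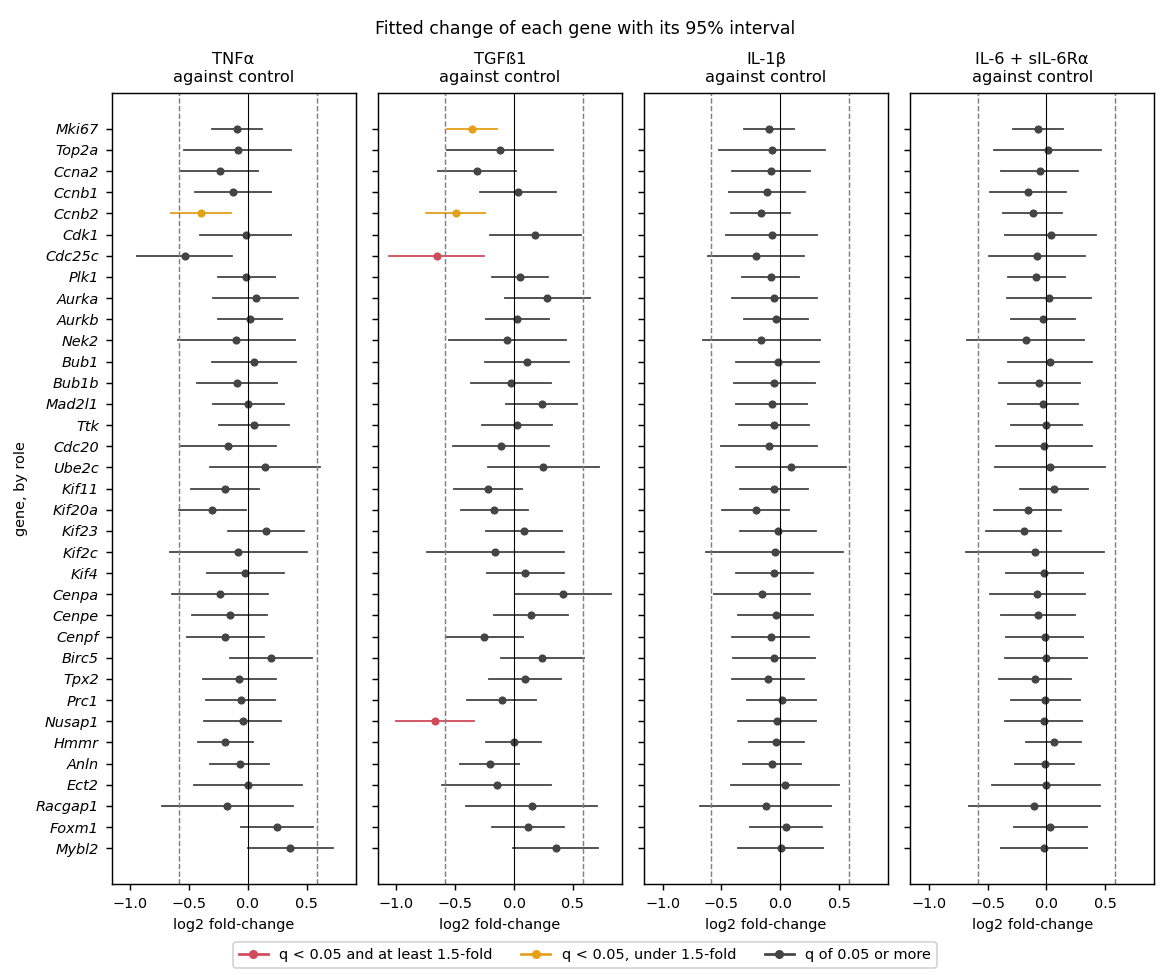
Log2 fold-change of each of the 35 genes (rows, by role) against control for the 4 cytokine groups (panels), with the 95% interval of the limma fit as a line and dashed lines at 1.5-fold. *Nusap1* (-0.67) and *Cdc25c* (-0.66) with TGFß1 are the red points, and the IL-1β and IL-6/sIL-6Rα estimates stay between -0.21 and 0.09.

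Among the genes of the cyclin B and Cdk1 switch, *Ccnb2* was lower with both TNFα and TGFß1 on every array. It was at 6.11, 5.76 and 6.06 on controls 1, 6 and 11. It was at 5.48, 5.51 and 5.74 on TNFα 4, 9 and 14 and at 5.43, 5.57 and 5.43 on TGFß1 2, 7 and 12, all below the lowest control. With IL-1β it was at 5.88, 5.79 and 5.75 (arrays 5, 10 and 15) and with IL-6/sIL-6Rα at 5.84, 5.90 and 5.84 (arrays 3, 8 and 13), which overlapped with the controls. The TGFß1 estimate was -0.50 (SE 0.12, q = 0.00861). It passed 1.5-fold with quantile normalization (-0.69, q = 0.000451), with the 75th percentile taken over probes detected on all arrays (-0.60, q = 0.000781) and without control 6 (-0.61, q = 0.00336).

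*Ccnb1*, the other B cyclin, did not follow *Ccnb2*. Its levels were 5.41, 4.93 and 5.23 in controls, 5.14, 4.87 and 5.17 with TNFα and 5.30, 5.10 and 5.28 with TGFß1. They were 5.20, 4.88 and 5.16 with IL-1β and 5.15, 4.87 and 5.10 with IL-6/sIL-6Rα, so that every group overlapped with the controls. Its estimates were -0.13 (95% interval -0.45 to 0.19) with TNFα and 0.03 (-0.29 to 0.36) with TGFß1.

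*Cdk1*, the kinase itself, was at 3.71, 3.21 and 3.76 in controls, 3.36, 3.34 and 3.92 with TNFα and 3.59, 3.86 and 3.75 with TGFß1. It was at 3.51, 3.501 and 3.45 with IL-1β and 3.74, 3.47 and 3.57 with IL-6/sIL-6Rα. The lowest array was control 6 and the highest TNFα 14, and all groups overlapped with the controls. The TGFß1 estimate was 0.18 (95% interval -0.21 to 0.57).

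*Cdc25c* was at 3.37, 2.71 and 3.41 in controls. It was at 2.43, 2.52 and 2.57 with TGFß1, below every control, and at 2.55, 2.39 and 2.93 with TNFα, where array 14 lay above control 6. With IL-1β it was at 3.13, 2.89 and 2.84 and with IL-6/sIL-6Rα at 3.19, 3.09 and 2.97, inside the range of the controls. Control 6 was far below the other controls for this gene, and the 95% interval of the TGFß1 estimate was -1.06 to -0.25. Without any 1 of controls 1 and 11 or TGFß1 2, 7 and 12 the gene was not called, with q-values from 0.0505 to 0.0854. With the slide in the model the estimate was -0.56 (q = 0.00928), under 1.5-fold. *Cdc25c* is 1 of 3 phosphatases of its kind, and the other members, not among the 35, went opposite ways with TGFß1. *Cdc25b* fell (-0.59, q = 0.0402, not called when 1 of 5 arrays other than control 6 was left out). *Cdc25a* was at 3.57, 3.09 and 3.61 in controls and higher, at 3.91, 4.04 and 3.80, with TGFß1, though not called.

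*Ccna2*, cyclin A, had 2 probes that disagreed with TGFß1. The probe that stands for the gene was at -0.32 (q = 0.155) and the other at 0.43 (q = 0.0649). The levels of the first were 4.82, 4.33 and 4.90 in controls, 4.42, 4.25 and 4.65 with TNFα and 4.31, 4.42 and 4.37 with TGFß1, overlapping with control 6. Of the 17 genes with more than 1 tested probe, 9 had probes of the same sign with TGFß1 and 8 with TNFα, and no second probe was called. The largest gap between probes of a gene was 0.75 with TGFß1 (*Ccna2*) and 0.73 with TNFα (*Anln*). Ranges of estimates in this text are those of the probe that stands for each gene, unless another probe is named.

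*Mki67*, which codes for the proliferation antigen Ki-67 that coats mitotic chromosomes, was lowest with TGFß1. Its levels were 5.44, 5.24 and 5.37 in controls and 5.02, 4.98 and 4.97 with TGFß1, with no overlap. They were 5.27, 5.13 and 5.38 with TNFα, 5.29, 5.25 and 5.24 with IL-1β and 5.31, 5.34 and 5.18 with IL-6/sIL-6Rα, all overlapping with the controls. The TGFß1 estimate was -0.36 (SE 0.10, q = 0.0196), so that it fell by 22.1% on the linear scale, short of 1.5-fold. The pooled within-group SD of *Mki67* was 0.0832, against a median of 0.178 over the 35 genes and 0.248 over all probes.

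*Top2a*, topoisomerase II alpha, which untangles sister DNA, was at 5.52, 4.93 and 5.42 in controls, 5.05, 4.92 and 5.65 with TNFα and 5.07, 5.34 and 5.11 with TGFß1. It was at 5.45, 5.13 and 5.07 with IL-1β and 5.42, 5.39 and 5.09 with IL-6/sIL-6Rα. Arrays of 1 group differed by more than any group differed from control. Its estimates were -0.09 (SE 0.21) with TNFα and -0.12 (SE 0.21) with TGFß1.

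The mitotic kinases *Plk1*, *Aurka*, *Aurkb* and *Nek2* gave estimates between -0.18 and 0.28 over the 4 comparisons, and none passed. Plk1 and Aurora A ready the spindle poles, Aurora B corrects faulty attachments of chromosomes and Nek2 separates the centrosomes. *Nek2* had the widest range of these 4 genes, at 1.78, 0.76 and 1.35 on controls 1, 6 and 11 and at 1.23, 1.03 and 1.11 with IL-6/sIL-6Rα, which lay between control 6 and control 11. The spindle checkpoint genes *Bub1*, *Bub1b*, *Mad2l1* and *Ttk*, whose products hold back anaphase until every chromosome is attached, stayed between -0.09 and 0.24. With all 3 TGFß1 arrays above all controls, *Mad2l1* had an estimate of 0.24 (q = 0.244). For the partners of the anaphase-promoting complex, the widest estimates were -0.17 (*Cdc20* with TNFα) and 0.25 (*Ube2c* with TGFß1).

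The 5 kinesins move chromosomes and microtubules, and none was called. *Kif20a*, which acts at the midzone and in cytokinesis, was at 4.44, 4.00 and 4.38 in controls and 4.06, 3.87 and 3.98 with TNFα (-0.30, q = 0.169). It was at 4.12, 3.86 and 4.21 with IL-1β and 4.11, 4.05 and 4.19 with IL-6/sIL-6Rα. Controls 1 and 11 lay above all of these arrays, and control 6 did not. *Kif23*, a subunit of centralspindlin, was at 2.19, 1.85 and 2.12 in controls and 1.94, 1.72 and 1.92 with IL-6/sIL-6Rα (-0.19, 95% interval -0.52 to 0.13). Control 6 lay below 2 of these 3 arrays. *Kif11*, *Kif2c* and *Kif4* gave estimates from -0.22 to 0.10.

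*Cenpa*, the histone variant that marks centromeres, was highest with TGFß1. It was at 3.66, 3.78 and 3.87 on TGFß1 2, 7 and 12 and at 3.56, 2.96 and 3.55 on the controls, so the groups did not overlap. It was at 3.101, 2.83 and 3.43 with TNFα, 3.40, 2.99 and 3.22 with IL-1β and 3.34, 3.16 and 3.34 with IL-6/sIL-6Rα, each below every TGFß1 array. Against control the TGFß1 estimate was 0.42 (SE 0.19, q = 0.129), and with the slide in the model it was 0.48 (q = 0.0472). *Cenpe* and *Cenpf*, kinetochore proteins, and *Birc5*, the passenger protein survivin, lay between -0.25 and 0.24.

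*Nusap1* separated TGFß1 from all other groups. It was at 3.32, 2.93 and 3.41 in controls and at 2.56, 2.40 and 2.67 with TGFß1. With TNFα it was at 3.19, 2.93 and 3.40, with IL-1β at 3.29, 3.04 and 3.24 and with IL-6/sIL-6Rα at 3.17, 3.17 and 3.25. The highest TGFß1 array lay below the lowest array of every other group. On the linear scale it fell by 37.3% with TGFß1 against control. TGFß1 minus control was -0.76, -0.52 and -0.74 within the runs of numbers 1 to 5, 6 to 10 and 11 to 15. Within slide 1, where TGFß1 7 is the only TGFß1 array, the estimate was -0.96. Within slide 2, where control 6 is the only control, the estimate was -0.31. The other spindle genes, *Tpx2*, *Prc1* and *Hmmr*, gave no call. *Hmmr*, a spindle-associated receptor for hyaluronan, was at 3.32, 3.17 and 3.35 in controls and 3.11, 3.01 and 3.14 with TNFα, all lower (-0.19, q = 0.293). By the probes that stand for them, the cytokinesis genes *Anln*, *Ect2* and *Racgap1* lay between -0.21 and 0.15. Other tested probes reached past this range, to 0.66 (*Anln*) and -0.44 (*Racgap1*) with TNFα, and were not called.

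**Figure D2:**
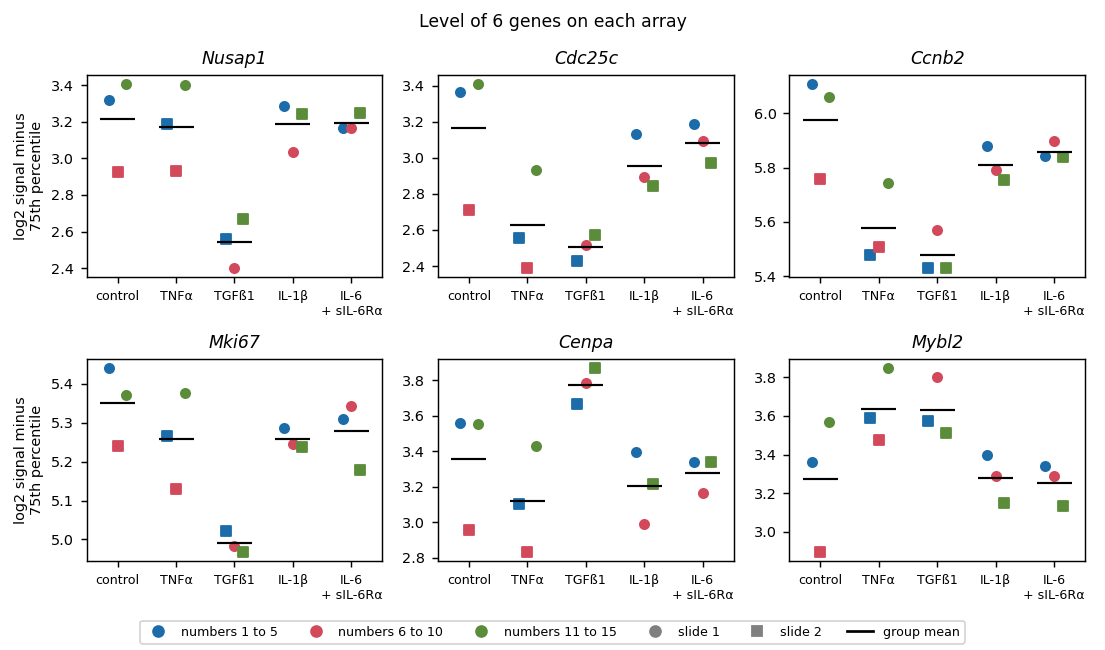
Level (log2 signal minus 75th percentile) of 6 genes on each of the 15 arrays, by group, coloured by run of label numbers and shaped by slide, with group means as lines. The TGFß1 arrays of *Nusap1* (2.40 to 2.67) lie below all others, and those of *Cenpa* (3.66 to 3.87) lie above all others.

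*Mybl2* and *Foxm1* code for transcription factors that activate many of the other genes here. *Mybl2* was at 3.36, 2.90 and 3.57 in controls, 3.59, 3.48 and 3.85 with TNFα and 3.57, 3.80 and 3.51 with TGFß1. With IL-1β it was at 3.40, 3.29 and 3.15 and with IL-6/sIL-6Rα at 3.34, 3.29 and 3.13. All TNFα and TGFß1 arrays lay above controls 1 and 6, and some lay below control 11. The estimates were 0.36 (q = 0.195) with TNFα and 0.35 (q = 0.149) with TGFß1. With the slide in the model they were 0.46 (q = 0.00902) and 0.45 (q = 0.00575), still under 1.5-fold. *Foxm1* was at 4.29, 4.31 and 4.33 in controls and at 4.59, 4.59 and 4.49 with TNFα, with no overlap (0.25, SE 0.14, q = 0.305). It was at 4.58, 4.23 and 4.48 with TGFß1, 4.34, 4.17 and 4.56 with IL-1β and 4.39, 4.09 and 4.56 with IL-6/sIL-6Rα, all overlapping with the controls. The other tested probe of *Foxm1* had the opposite sign, at -0.13 with TNFα and at -0.32 (beside 0.12) with TGFß1, and was not called.

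Counted over all 35 genes, each by the probe that stands for it, 3 had no overlap between the TNFα and control arrays (28.9% of all probes). These were *Ccnb2* and *Hmmr*, lower, and *Foxm1*, higher. With TGFß1 there were 6 (38.8% of all probes), namely *Mki67*, *Ccnb2*, *Cdc25c* and *Nusap1*, lower, and *Mad2l1* and *Cenpa*, higher. There was none with IL-1β (5.32%) or IL-6/sIL-6Rα (5.04%).

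Set directly against each other, the cytokines differed in *Nusap1* and *Cenpa*. TNFα against TGFß1 gave 2 calls (11.8% of all probes), *Nusap1* higher (0.63, q = 0.0131) and *Cenpa* lower (-0.65, q = 0.0332). IL-1β against TGFß1 gave 1 call (16.9%), *Nusap1* higher (0.65, q = 0.00948), and *Cenpa* was at -0.57 (q = 0.0453), under 1.5-fold. IL-6/sIL-6Rα against TGFß1 gave 1 call (16.3%), *Nusap1* higher (0.65, q = 0.00927), with *Cdc25c* (0.58, q = 0.0441) and *Ccnb2* (0.38, q = 0.0341) under 1.5-fold. These 3 comparisons share the TGFß1 arrays. Without TGFß1 7 none of the 3 comparisons gave a call. In the pairs without TGFß1, limma called 0 of the 35 genes. Of all probes, 4.69% were called in IL-1β against TNFα, 0.399% in IL-1β against IL-6/sIL-6Rα and 8.59% in IL-6/sIL-6Rα against TNFα. At an unadjusted p below 0.05 there were 0, 0 and 5 of the 35 genes in the same order. The share of all probes at that threshold is not given, so these counts are not read further.

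The 35 genes varied together from array to array within groups. Their mean level was 4.04, 3.62 and 4.04 on controls 1, 6 and 11. It was 3.82, 3.65 and 4.04 on TNFα 4, 9 and 14, and 3.85, 3.84 and 3.91 on TGFß1 2, 7 and 12. It was 3.96, 3.68 and 3.87 on IL-1β 5, 10 and 15, and 3.92, 3.77 and 3.88 on IL-6/sIL-6Rα 3, 8 and 13. In each group the lowest array was the one numbered 6 to 10, although the TGFß1 arrays differed little. The group means lay between 3.83 and 3.90, while the SD between arrays was 0.25 for controls, 0.20 for TNFα and 0.034 for TGFß1.

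On control 6, 35 of the 35 genes lay below the mean of their own group (56% of all probes). This held for 34 genes on TNFα 9 (55.8% of all probes) and 33 on IL-1β 10 (50.5%). It held for 27 on IL-6/sIL-6Rα 8 (50.9%) and 22 on TGFß1 7 (42.2%). On control 11 it held for 0 genes (41.1%) and on TNFα 14 for 1 (40%). The median deviation on control 6 was -0.26 for the 35 genes, beside -0.05 over all probes and -0.24 over 44 genes of G1/S and DNA replication. With array deviations from the group means taken over the 15 arrays, Pearson's r between pairs of the 35 genes had a median of 0.744 (range -0.41 to 0.971), and 471 of the 595 pairs were over 0.5. The points share arrays, slides and runs, so this is a description. Correlations between other probes are not given beside it, so whether these genes varied together more than others was not tested.

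**Figure D3:**
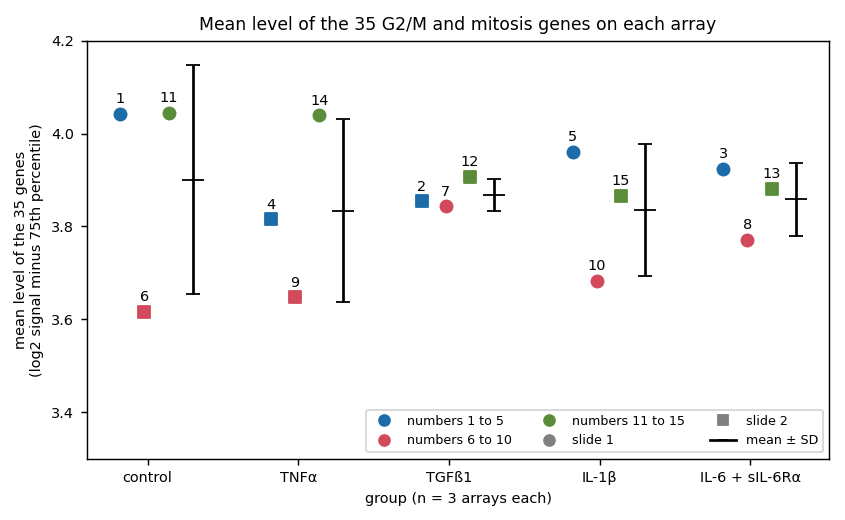
Mean level of the 35 genes (log2 signal minus 75th percentile) on each array, numbered as in the labels, with colour for the run of label numbers, shape for the slide, and the group mean ± SD beside it (n = 3). Control 6 (3.62), TNFα 9 (3.65) and IL-1β 10 (3.68) are the lowest arrays.

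**Figure D4:**
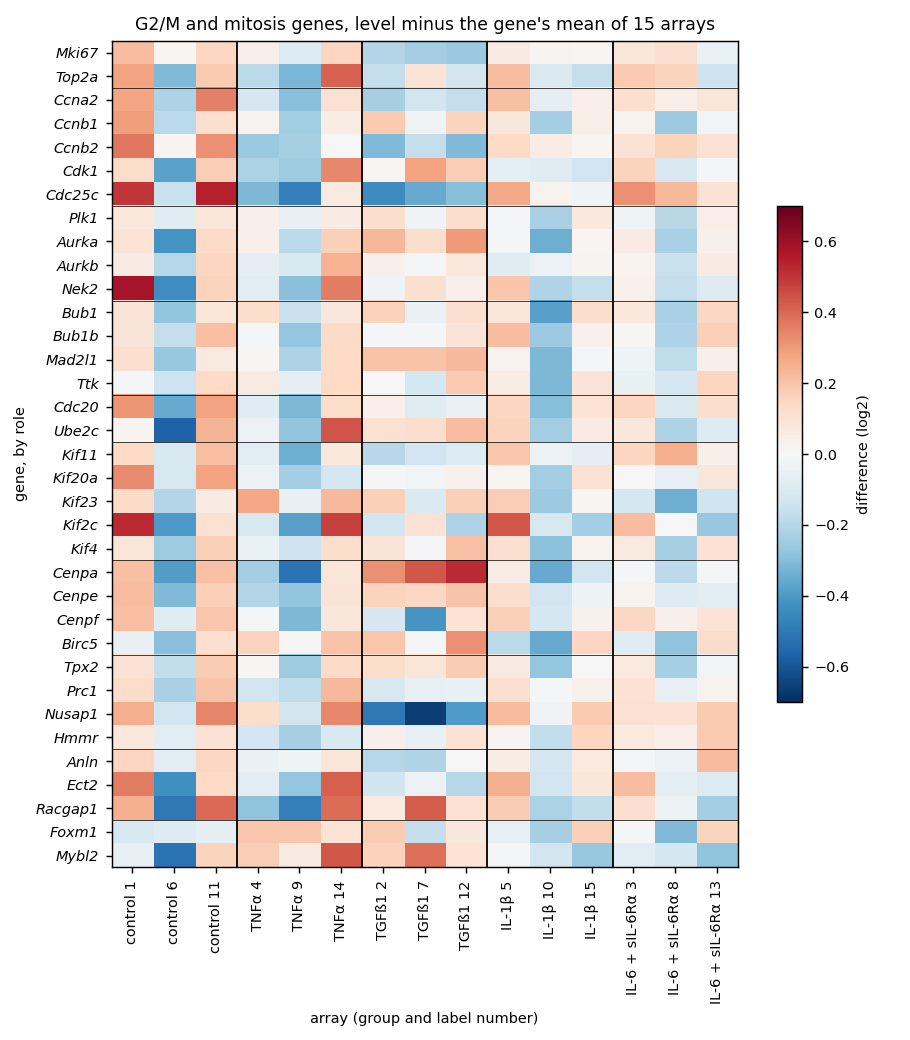
Level of each gene (rows, by role) on each array (columns, by group) minus the mean of that gene over the 15 arrays, in log2 units from blue (lower) to red (higher). The columns of control 6, TNFα 9 and IL-1β 10 are blue for most rows, and the TGFß1 columns stand out in the *Nusap1* and *Cenpa* rows.

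A model with slide and run of label numbers as blocks put a size on this. All 35 genes were lower in the run of numbers 6 to 10 than in numbers 1 to 5, with a median of -0.21 (-0.02 over all probes), and 24 genes had a q-value below 0.05 (25.8% of all probes). None was called (4.51% of all probes were). For numbers 11 to 15 against 1 to 5 the median was 0.05, and 1 gene, *Ube2c*, had a q-value below 0.05 (9.98% of all probes), at under 1.5-fold (1.62% of all probes were called). The labels do not say what the runs stand for, and their part in the results was not tested beyond these fits. Slide 2 against slide 1, in the model with the slide alone, gave 0 called genes (10.8% of all probes), 9 with a q-value below 0.05 (36.6%) and a median of -0.08, beside -0.09 over all probes, with 28 of 35 estimates below 0 (37.0% of all probes were above 0).

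With both terms in the model the intervals narrowed from 0.33 to 0.15 on either side of the estimate at the median. With TGFß1, 16 genes then had a q-value below 0.05 (52.0% of all probes), and 1 was called (22.7% of all probes), *Nusap1* (-0.63, q = 6.44e-05). Besides *Cdc25c*, *Ccnb2* and *Mki67*, the genes lower by q-value were *Ccna2*, *Anln* and *Cenpf*, each by the probe that stands for it. In the model without slide and run, the other tested probe was higher for *Ccna2* (0.43) and *Anln* (0.48, beside -0.21). For *Cenpf* it was lower (-0.34). The higher ones were *Cenpa* (0.50), *Mybl2* (0.46), *Ube2c* (0.35), *Racgap1* (0.33), *Aurka* (0.32), *Cdk1* (0.29), *Mad2l1* (0.27), *Birc5* (0.22) and *Cenpe* (0.21). With TNFα 7 genes had a q-value below 0.05 (38.2%) and 0 were called (15.4%). These were *Cdc25c* (-0.43), *Ccnb2* (-0.34), *Kif20a* (-0.29) and *Hmmr* (-0.20), lower, and *Mybl2* (0.47), *Ube2c* (0.24) and *Kif23* (0.16), higher. With IL-1β and IL-6/sIL-6Rα limma called 0 (1.10% and 0.787% of all probes) and none had a q-value below 0.05. At an unadjusted p below 0.05 there were 3 and 2 genes, with no share of all probes given beside them. For both cytokines the 95% interval of all 35 genes lay inside a 1.5-fold change. The share of all probes with such intervals in this model is not given, so this count is not read further.

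The promoters of 29 of the 35 genes are in the RefSeq table of assembly GRCm38.p6, each as 250 bases before to 50 bases after the gene start. *Ccna2*, *Cdc25c*, *Aurkb*, *Kif20a*, *Tpx2* and *Foxm1* are not in it. CCAAT, the NF-Y box, was searched on both strands (as CCAAT or ATTGG), as was TTTGAA (or TTCAAA), a form of CHR, and TTCGAA, which reads the same on both strands. Each motif was counted on its own, also where its letters overlap with another. CCAAT was in 23 of the 29 genes (79.3%), beside 41.1% of the 27025 genes of the table, and 16 genes (55.2%, beside 13.3%) had more than 1 copy. TTTGAA was in 21 genes (72.4%, beside 20.2%) and TTCGAA in 3 (10.3%, beside 1.80%). Both CCAAT and TTTGAA were in 19 genes (65.5%, beside 7.97%). Among 36 genes of G1/S and DNA replication with a promoter in the table, CCAAT was in 63.9% and TTTGAA in 22.2%. Among 79 other genes of mitosis, from a list used further on, CCAAT was in 62%, TTTGAA in 50.6% and both in 35.4%. A match of letters is not a site, and no array here measured binding.

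The 200 bases before the start are shown for *Nusap1*, which was called with TGFß1, as was *Cdc25c*, whose promoter is not in the table, for *Cenpa*, which went the other way, for *Mki67* and *Ccnb2*, lower by q-value alone, and for *Ccnb1* and *Cdk1*, which passed in no comparison with control in the model without slide and run. Capitals mark CCAAT and TTTGAA on either strand.
Nusap1 (GRCm38.p6, chr2:119618098-119618297, plus strand): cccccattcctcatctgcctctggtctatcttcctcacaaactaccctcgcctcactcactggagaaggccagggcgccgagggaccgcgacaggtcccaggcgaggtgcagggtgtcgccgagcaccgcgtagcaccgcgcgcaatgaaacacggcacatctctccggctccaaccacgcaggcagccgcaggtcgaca
Mki67 (GRCm38.p6, chr7:135716380-135716579, minus strand): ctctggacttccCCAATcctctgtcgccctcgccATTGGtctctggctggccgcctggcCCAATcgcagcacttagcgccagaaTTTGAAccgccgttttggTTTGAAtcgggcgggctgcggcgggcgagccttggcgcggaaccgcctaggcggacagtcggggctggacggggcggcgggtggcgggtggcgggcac
Ccnb2 (GRCm38.p6, chr9:70421555-70421754, minus strand): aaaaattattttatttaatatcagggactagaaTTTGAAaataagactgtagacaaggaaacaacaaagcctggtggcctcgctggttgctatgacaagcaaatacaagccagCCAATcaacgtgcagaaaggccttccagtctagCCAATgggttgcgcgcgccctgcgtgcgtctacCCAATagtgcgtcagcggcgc
Ccnb1 (GRCm38.p6, chr13:100786487-100786686, minus strand): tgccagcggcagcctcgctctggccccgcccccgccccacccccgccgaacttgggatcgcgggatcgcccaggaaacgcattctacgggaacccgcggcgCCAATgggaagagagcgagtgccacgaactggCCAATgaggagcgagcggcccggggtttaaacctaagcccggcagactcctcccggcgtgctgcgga
Cdk1 (GRCm38.p6, chr10:69352913-69353112, minus strand): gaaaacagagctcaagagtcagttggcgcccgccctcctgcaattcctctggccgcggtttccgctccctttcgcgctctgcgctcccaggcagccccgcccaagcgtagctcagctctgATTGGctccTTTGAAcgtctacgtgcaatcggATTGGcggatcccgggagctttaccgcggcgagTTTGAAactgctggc
Cenpa (GRCm38.p6, chr5:30666686-30666885, plus strand): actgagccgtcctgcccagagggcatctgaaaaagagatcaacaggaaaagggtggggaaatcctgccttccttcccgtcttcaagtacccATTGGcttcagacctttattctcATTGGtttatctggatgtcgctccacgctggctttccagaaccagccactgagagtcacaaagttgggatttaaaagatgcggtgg
*Ccnb2* held CCAAT 87, 54 and 21 bases before the start and TTTGAA 167 bases before it, and *Ccnb1* held it 99 and 67 bases before. *Mki67* held 3 CCAAT boxes followed by TTTGAA 116 and 98 bases before the start. *Cdk1* held CCAAT 208, 80 and 48 bases before and TTTGAA 71 and 15 bases before, of which the most distant lies outside the bases shown. *Cenpa* held CCAAT 109 and 86 bases before. *Ccnb2* and *Cenpa* held a further TTTGAA 5 and 17 bases past the start. *Nusap1* held none of these motifs in its window, which says nothing of the factors that act on it. *Ccnb1*, *Ccnb2* and *Cdk1* thus each held CCAAT before the start, and of these *Ccnb1* held no TTTGAA in its window. Whether the motifs bear on the levels of these genes was not tested.

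Outside the 35 genes, 94 more genes of mitosis and its exit gave 6 calls with TGFß1 (17.9% of all probes were called) and 1 with TNFα (10.0% of all probes), and 0 with IL-1β and IL-6/sIL-6Rα (0 genes at an unadjusted p below 0.05 in either). With TGFß1 the kinetochore genes *Cenpm* (-1.03, q = 0.000617) and *Cenpk* (-0.77, q = 0.000241) fell, as did *Iqgap3* (-0.87, q = 0.00182), a scaffold protein, and *Anapc13* (-0.78, q = 0.00516), a subunit of the anaphase-promoting complex. Each of these was called without any 1 array of the comparison. *Bora*, a partner of Aurora A and Plk1, rose (0.67, q = 0.00365), though not past 1.5-fold without control 6 (0.58). With TNFα *Iqgap3* was higher (0.60, q = 0.0236), a call lost without control 6 (0.49), TNFα 4 or TNFα 14. The medians over the 94 genes were -0.06 with TNFα and -0.04 with TGFß1.

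Of 44 genes of G1/S and DNA replication, 2 were called with TGFß1 (beside 17.9% of all probes), *E2f8* higher (0.80, q = 0.000169), a repressor of E2F targets, and *Lig1* lower (-0.73, q = 0.00426), the ligase that joins Okazaki fragments. With TNFα 0 were called by limma (10.0% of all probes), with 5 at an unadjusted p below 0.05 (25.9% of all probes). The medians were 0.02 with TNFα and -0.11 with TGFß1. Of 16 genes of the DREAM complex and NF-Y, 2 were called with TGFß1 (beside the same 17.9%), *Rbl2* lower (-0.89, q = 0.00187), which codes for the pocket protein p130, and *E2f5* higher (0.76, q = 0.00849). With TNFα 0 were called by limma, with 2 at an unadjusted p below 0.05 (beside the same 25.9%). These calls with TGFß1 held without any 1 array of the comparison.

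A further list held 16 genes that brake the cycle or act in G1. Of the 15 tested, 5 were called with TNFα (beside 10.0% of all probes) and 5 with TGFß1 (beside 17.9%), and 0 with IL-1β or IL-6/sIL-6Rα (1 at an unadjusted p below 0.05 in each). *Gadd45a*, a stress-induced gene that can hold cells in G2, was at 0.01, 0.25 and -0.30 in controls, 1.55, 1.57 and 0.93 with TNFα and 1.70, 2.02 and 1.29 with TGFß1. It rose with both (1.36, q = 0.00262, and 1.69, q = 0.000354). The CDK4 and CDK6 inhibitors *Cdkn2c* and *Cdkn2d* fell with TNFα (-0.76, q = 0.00399, and -0.74, q = 0.0154) and with TGFß1 (-0.88, q = 0.000863, and -1.04, q = 0.00127). *Cdkn2d* was not called with TNFα without control 6, control 11 or TNFα 4. *Trp53*, which codes for p53, rose with TNFα (0.88, q = 0.00201). *Mdm2*, which codes for the ligase that marks p53 for destruction, was called as higher with TNFα (0.70, q = 0.0382) and TGFß1 (0.68, q = 0.0271). That call was lost with TNFα without any 1 of control 6 (0.53), control 11, TNFα 4, 9 or 14, and with TGFß1 without control 6 (0.51), control 11, TGFß1 2 or 7. *Trp53* and *Mdm2* are named after their values were seen, to complete the counts.

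*Cdkn1a*, the p21 inhibitor, was not called (0.00 with TNFα and 0.31 with TGFß1). *Cdkn1b*, the p27 inhibitor, was lower with TNFα by q-value alone (-0.56, q = 0.0130). *Cdkn2b*, a known target of TGFß1 in epithelial cells, was at 3.24, 3.21 and 3.19 in controls and at 3.59, 4.24 and 3.55 with TGFß1 (0.58, q = 0.0387), just under 1.5-fold. *Ccnd1*, cyclin D1, was not called (0.11 and 0.34). *Myc* was at 2.37, 0.65 and 2.31 in controls and at 3.35, 3.39 and 3.19 with TGFß1, where it was called as higher (1.53, q = 0.0198). Control 6 was far below the other controls, and the call was lost without it (0.97, q = 0.0563), without TGFß1 2 and without TGFß1 7.

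**Figure D5:**
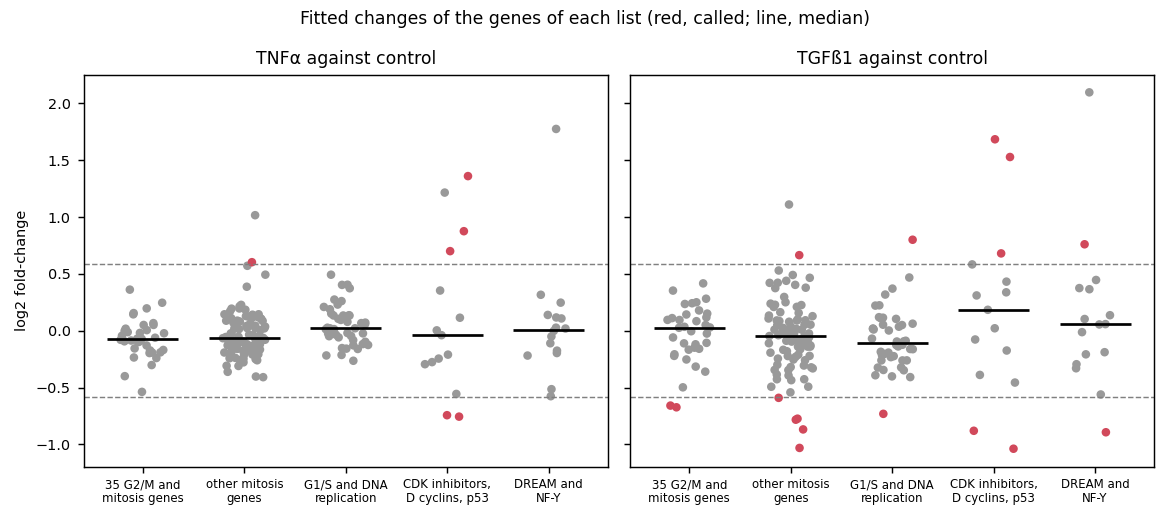
Log2 fold-change against control of the genes of 5 lists with TNFα (left) and TGFß1 (right), each point a gene, red where called, with the list's median as a line and dashed lines at 1.5-fold. The 35 genes lie between -0.67 and 0.42, within a narrower span than the CDK inhibitors, D cyclins and p53 genes (-1.04 to 1.69).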

How the data were processed

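Per the labels and the study's methods, the authors labelled RNA with Cyanine 3, hybridized it to 1-color 60-mer arrays and extracted the spots with Agilent Feature Extraction 10.7.3.1. The deposited values are spot intensities after the software's background subtraction, with no normalization between arrays. A series-wide table repeats the intensities of the scanner files (largest difference 0).

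Spots that are not controls (59305 of 62976) and not marked as outliers were averaged per probe on the log2 scale, and each array's 75th percentile was subtracted. A probe was tested where all arrays of 1 group or more had it well above background (29334 probes), and 48.3% to 54.9% of probes were well above background per array. Saturation flags were absent. Precision is set by the number of arrays. Names came from RefSeq (GRCm38.p6) for 33767 probes. A gene is represented by its brightest tested probe. Comparisons used limma 3.58.1 in R 4.3.3, two-sided, with Benjamini-Hochberg adjustment. The scripts were tested on simulated data.

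The 35 genes and all lists were chosen with earlier results of these data known. All 35 may be named, with array values for called genes and those nearest the threshold, and up to 4 genes from each other list. Alternatives covered slide, run, normalization, filters, thresholds and leaving out arrays. The normexp alternative used the median signal, as the files used hold no mean signal.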

Additional observations from a re-analysis of the deposited data

How the results depend on the processing

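Under the alternatives run, 175 counts of called genes stayed within 1.5 times their value and 45 did not, while 191 medians moved by less than 1 SD between arrays and 9 by more. No called gene changed direction, while 372 estimates that were not called changed sign. With TNFα against control, q-value alone gave 1 gene, and leaving out 1 array gave 0 to 1. With TGFß1 against control, the 2 calls became 1 with the slide as a block, with slide and run as blocks, with no filter on dim probes and with only the arrays of both groups. They became 0 within slide 1 or at a fold-change of 2, and 4 by q-value alone. Within slide 2, where control 6 was the only control, both were lost, and the estimates of some other genes rose past 1.5-fold, as given above. Leaving out 1 array gave 0 (without control 11) to 3 (without control 6), and leaving out arrays 6 to 10, chosen after seeing the data, gave 3. With TNFα against TGFß1, the 2 calls became 1 within slide 2, with quantile normalization, with the percentile over detected probes, with no filter, with only both groups' arrays and without arrays 6 to 10. They became 0 within slide 1 and at a fold-change of 2, and 0 (without TGFß1 7) to 1 without 1 array. With IL-1β against TGFß1, the 1 call became 2 with the slide, with slide and run, and by q-value alone. It became 0 within either slide and at a fold-change of 2, and 0 (without TGFß1 7) to 2 (without IL-1β 5) without 1 array. With IL-6/sIL-6Rα against TGFß1, the 1 call became 2 with quantile normalization or the percentile over detected probes, and 3 by q-value alone. It became 0 within either slide and at a fold-change of 2, and 0 (without TGFß1 7) to 1 without 1 array. The medians over the 35 genes that moved did so within a slide. Within slide 1, where TNFα 14 and TGFß1 7 were the only arrays of their groups, they were -0.17 (TGFß1 against control), -0.20 (IL-6/sIL-6Rα against control), 0.21 (TNFα against TGFß1), -0.23 (IL-1β against TNFα) and -0.22 (IL-6/sIL-6Rα against TNFα). Within slide 2, where control 6 was the only control, they were 0.11 with TNFα, 0.25 with TGFß1, 0.24 with IL-1β and 0.26 with IL-6/sIL-6Rα, each against control. IL-1β 15 and IL-6/sIL-6Rα 13 were also the only arrays of their groups on slide 2. The cause of these shifts was not tested. The label numbers are not shared between groups, but each run of 5 holds 1 array of every group. With the run as a block, without the slide, TGFß1 gave 2 calls (*Nusap1* and *Cdc25c*, both lower) and the other cytokines 0 against control. With 3 arrays a group, a gene that was not called may still have changed, also by more than 1.5-fold.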
